A study of Arabidopsis thaliana with 28 samples.

Results

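Transcripts of 3 nuclear genes for mitochondrial electron transport were followed in Arabidopsis thaliana grown with and without sucrose. The genes were chosen by their probe numbers: probe 3771 for AT4G02580, the 24 kDa subunit of complex I, probe 2521 for AT5G47890, the B8 subunit of complex I, and probe 943 for ETFQO (AT2G43400), the electron-transfer flavoprotein:ubiquinone oxidoreductase. These are 3 of the 3439 probes of the table, and each is annotated to 1 gene. All plants were wild type of the ecotype Columbia 0. Of the 28 arrays of total RNA, 14 came from plants on Murashige and Skoog (MS) medium with 2% sucrose, labelled pSuc, and 14 from plants on MS medium without it, labelled H2O. Organ and age are not named in the labels, so a change in transcript per cell cannot be told apart from a change in the kinds of cells sampled. The comparison sets growth on a supplied sugar against growth without one.

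Complex I is the entry point of the respiratory chain for electrons from NADH, which the oxidation of sugars supplies in the mitochondrial matrix. Its 24 kDa subunit carries an iron-sulfur cluster of the NADH-oxidizing arm, and B8 is an accessory subunit of the same arm. ETFQO sits in the inner mitochondrial membrane and passes electrons to ubiquinone without complex I. It receives them from the electron-transfer flavoprotein, which collects them from dehydrogenases of branched-chain amino acid and lysine breakdown. Arabidopsis is known to draw on that route when carbohydrate runs short, as in extended darkness.

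In the normalized data both complex I genes rose on sucrose and ETFQO fell slightly. AT4G02580 was 5.15-fold higher on sucrose, although this size depends on a signal floor, AT5G47890 was 2.19-fold higher, and ETFQO was 1.24-fold lower. The first of these calls held under all 27 alternatives in which it could be tested, and the second in 27 of 28. The exception was the values as deposited, without normalization between arrays, where AT5G47890 was 1.45-fold higher (limma adjusted p = 0.105). The alternatives reuse the same arrays, and 14 of them only leave out 1 set, so they are not independent tests. Of all probes, 17.6% were called higher and 12.4% lower on sucrose in the normalized data. Under the alternatives 12.1% to 53.6% of the probes tested were called in either direction. The ETFQO call held in 10 of 28, so it was close to the limit of what these arrays could show. The 2 complex I genes also changed in relation to ETFQO, and those differences passed in all 24 alternatives tested. Each difference contains the changes of its 2 genes, so it is not separate evidence from their calls.

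Values are intensities on a linear scale whose unit is not stated. For the tests they were raised to a floor of 0.0483, log2 transformed and quantile normalized. Arrays with consecutive numbers in a group were averaged, because 26 of the 28 arrays correlated best with that neighbour, which gave 7 sets of 2 arrays per group. Nothing in the labels says that sets came from separate cultures. The p-values therefore cover the spread between sets alone, which may be technical, and precision is limited by how few arrays there are. Sucrose set 1 and no-sucrose sets 1 and 2 stood apart from their groups over the whole table in earlier work on these data. The median intensity of the probes was 0.339 in sucrose set 1 and 0.163 to 0.213 in sucrose sets 2 to 7. It was 0.182 and 0.213 in no-sucrose sets 1 and 2, and 0.344 to 0.432 in no-sucrose sets 3 to 7. Results are given with these 3 sets and, where stated, without them. They were chosen for their distance from their own group in the same values, so leaving them out favours larger differences by construction.

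AT4G02580 gave signal on nearly all arrays of sucrose-grown plants and on few of the others. Its intensity per set on sucrose was 0.0185 at the lowest, 0.255 at the median and 0.474 at the highest. Without sucrose the lowest and the median set were at 0 and the highest was at 0.0284. It was listed at 0 on 1 of the 14 sucrose arrays and on 11 of the 14 arrays without sucrose. Sucrose set 1 was the low one, and the other 6 sucrose sets lay above all 7 sets without sucrose. Intensities at or below the floor were found on 2 sucrose arrays and 13 arrays without sucrose.

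On the normalized scale the log2 signal of AT4G02580 averaged -1.97 ± 1.18 on sucrose and -4.33 ± 0.10 in its absence (SD, n = 7 sets each). This is a log2 fold change of 2.37 ± 0.44 (SE) with a limma adjusted p of 0.00495. Over all probes, 17.6% were called higher on sucrose at this threshold. Without sucrose every set except set 2 lay exactly at the floor, so the SD of 0.10 is not a measured spread. The SE and the adjusted p of AT4G02580 share this limit. Because the level without sucrose was mostly at the floor, the floor sets the size: the fold was 3.43 with the floor at the 10th percentile of positive values, 16.1 with it at the 1st percentile, and 3.41 with an offset of 0.1 in its place. The call passed under each of these. Without the 3 sets that stood apart the log2 fold change was 2.80 (limma adjusted p = 1.59e-05), in a fit that called 26.7% of all probes higher.

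**Figure D1:**
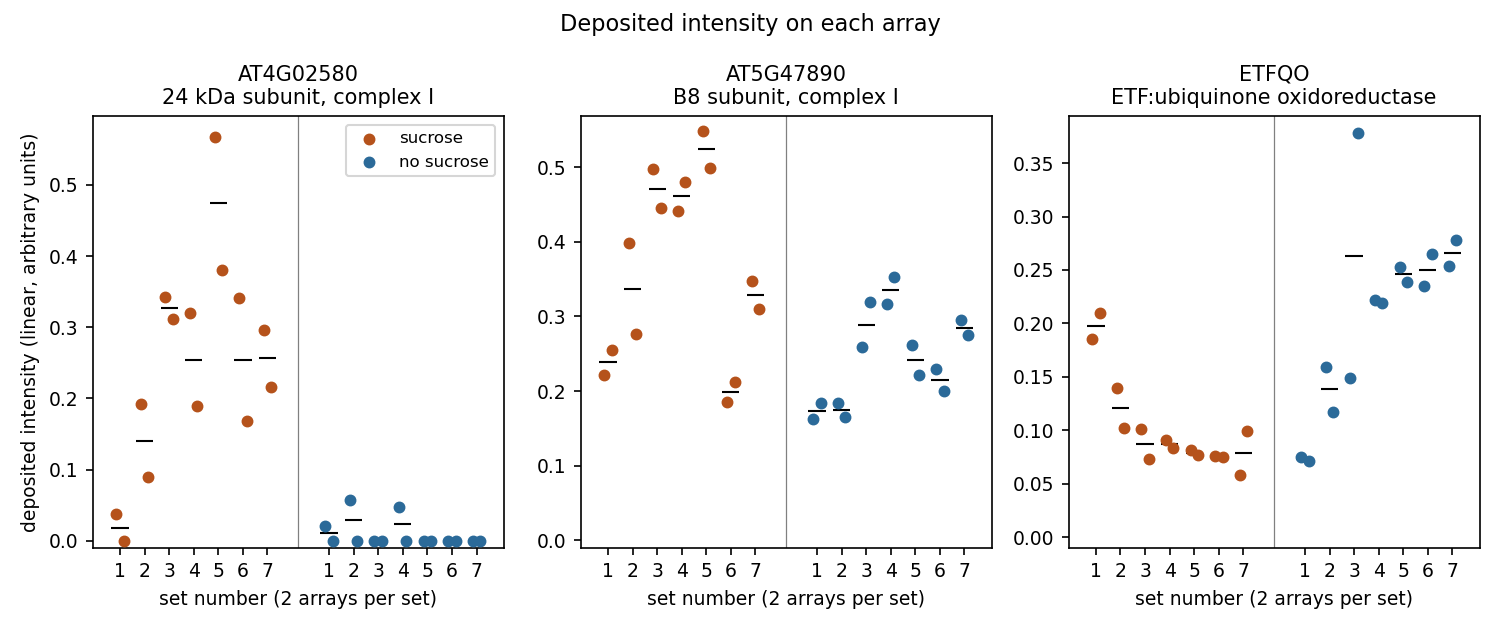
Deposited intensity (linear, arbitrary units) of AT4G02580, AT5G47890 and ETFQO on each of the 28 arrays, by set number, with sucrose on the left and no sucrose on the right of each panel. Points are arrays and short bars are means of the 2 arrays of a set. AT4G02580 is listed at 0 on 11 of the 14 arrays without sucrose, while ETFQO is highest in no-sucrose sets 3 to 7 and in sucrose set 1.

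AT5G47890 was measured above the floor on all 28 arrays, so its change does not rest on a floor. Its intensity per set was 0.199, 0.337 and 0.524 with sucrose (lowest, median and highest), against 0.173, 0.241 and 0.335 without. The groups overlapped on this deposited scale, where sucrose sets 6 and 1 were the low ones of their group and 4 of the 7 sucrose sets lay above all sets without sucrose. After normalization 6 of the 7 sucrose sets lay above all others, and sucrose set 1 was the exception.

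The log2 signal of AT5G47890 averaged -1.27 ± 0.69 on sucrose and -2.40 ± 0.29 in its absence (SD, n = 7 sets each). The difference, a log2 fold change of 1.13 ± 0.28 (SE), had a 95% confidence interval from 0.53 to 1.73 and passed in limma (adjusted p = 0.0115). Changes at least as large in this direction were found for 6.25% of all probes. Arrays of a set agreed closely, with an SD within sets of 0.186 on sucrose and 0.132 without, against 0.69 and 0.29 between sets. Without the 3 sets that stood apart the normalized sets of the 2 groups did not overlap, as was also true of AT4G02580 and of 18.7% of all probes in this direction. The log2 fold change of AT5G47890 was then 1.44 (limma adjusted p = 0.000505).

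ETFQO was also above the floor on all 28 arrays, and its intensity was lower on sucrose. Its intensity per set was 0.0754, 0.0872 and 0.198 with sucrose (lowest, median and highest), against 0.0733, 0.246 and 0.266 without. The ranges overlapped fully, because no-sucrose set 1 held the lowest value of all 14 sets and sucrose set 1 lay far above the other sucrose sets. Sucrose sets 2 to 7 lay at 0.0754 to 0.121 and no-sucrose sets 3 to 7 at 0.221 to 0.266, and these did not overlap, as was the case in the same direction for 35.7% of all probes as deposited. The group means were 0.104 ± 0.044 on sucrose and 0.208 ± 0.074 in its absence (SD, n = 7 sets each).

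The median intensities of whole arrays, given above, were also lower in sucrose sets 2 to 7 than in no-sucrose sets 3 to 7. After quantile normalization the log2 signal of ETFQO averaged -3.02 ± 0.18 on sucrose and -2.71 ± 0.22 in its absence (SD, n = 7 sets each). The difference, a log2 fold change of -0.31 ± 0.11 (SE), had a 95% confidence interval from -0.54 to -0.08 and passed narrowly in limma (adjusted p = 0.0411). All 7 sucrose sets lay below the mean of the sets without sucrose, and 12.4% of all probes were called lower on sucrose. The 2 arrays of a set differed about as much as the groups did, with an SD within sets of 0.253 on sucrose and 0.355 without. In no-sucrose set 3 the 2 arrays read 0.148 and 0.378.

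The call of ETFQO ended when the set was a random block over the 28 arrays (log2 -0.31, limma adjusted p = 0.312), a fit that called 15.3% of all probes lower. It also ended with arrays centred on their medians (log2 -0.34, limma adjusted p = 0.154), where 12.6% were called lower. Without the 3 sets that stood apart the log2 fold change was -0.41 (limma adjusted p = 0.00511), where 21.5% of all probes were called lower, and the normalized sets still overlapped.

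**Figure D2:**
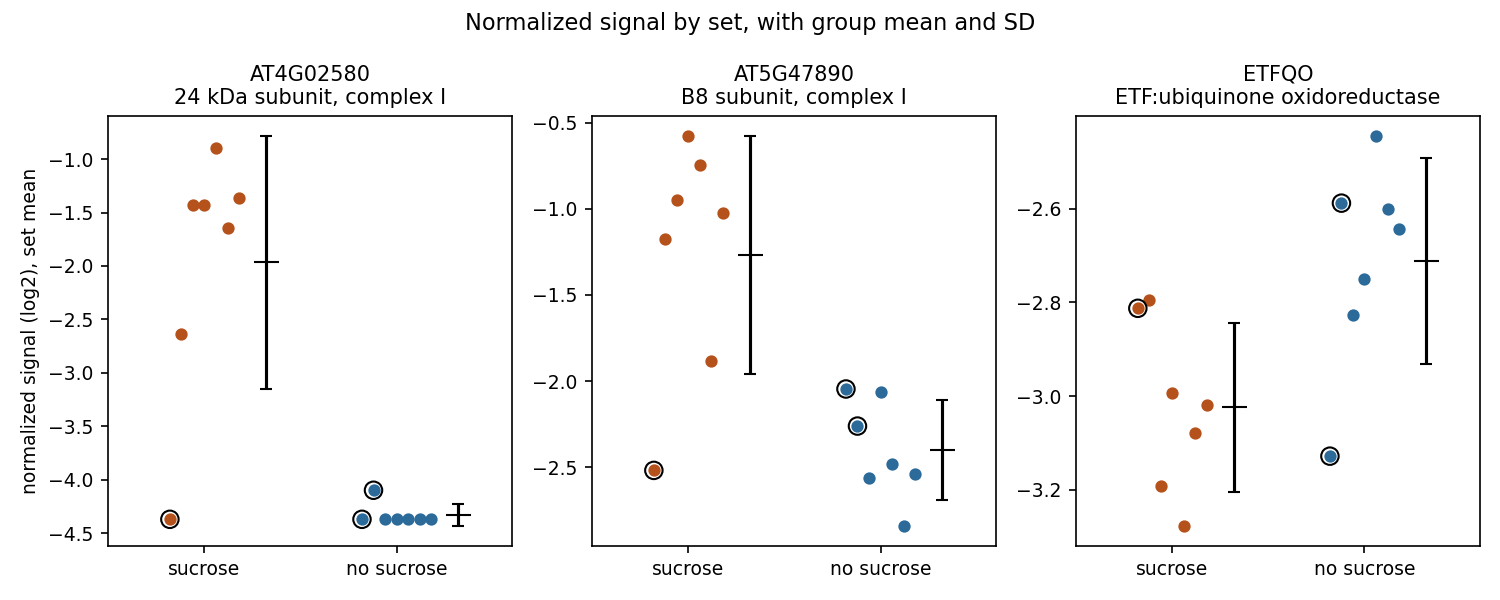
Normalized signal (log2) of the 3 genes in each set, with sucrose on the left and no sucrose on the right; points are sets, the bar and whiskers give the group mean and SD (n = 7), and circled points are the sets that stood apart. Vertical scales differ between panels, and levels of different genes are not comparable. In both complex I genes 6 of the 7 sucrose sets lie above all sets without sucrose, while the groups overlap in ETFQO.

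The scaling of the arrays changed the size of the fold changes and which genes passed, but not the sign of any. With the values as deposited, the median probe had a log2 fold change of -0.31, and after centring on array medians one of 0.31. Relative to that median, AT4G02580 was higher by 2.37, AT5G47890 was higher by 0.85 and ETFQO stood at -0.65 (log2); the 2 scalings give the same relative values by construction. As deposited, AT5G47890 did not pass (log2 fold change 0.54, limma adjusted p = 0.105), and ETFQO was 1.95-fold lower (limma adjusted p = 0.0388). As deposited, 5.5% of all probes were called higher and 21.5% lower. Centred on the median, AT5G47890 passed (log2 1.16, limma adjusted p = 0.00754), as did 31.3% of all probes in the same direction. AT4G02580 passed under both, with log2 fold changes of 2.06 as deposited (limma adjusted p = 0.00581) and 2.68 centred on the median (limma adjusted p = 0.00181).

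**Figure D3:**
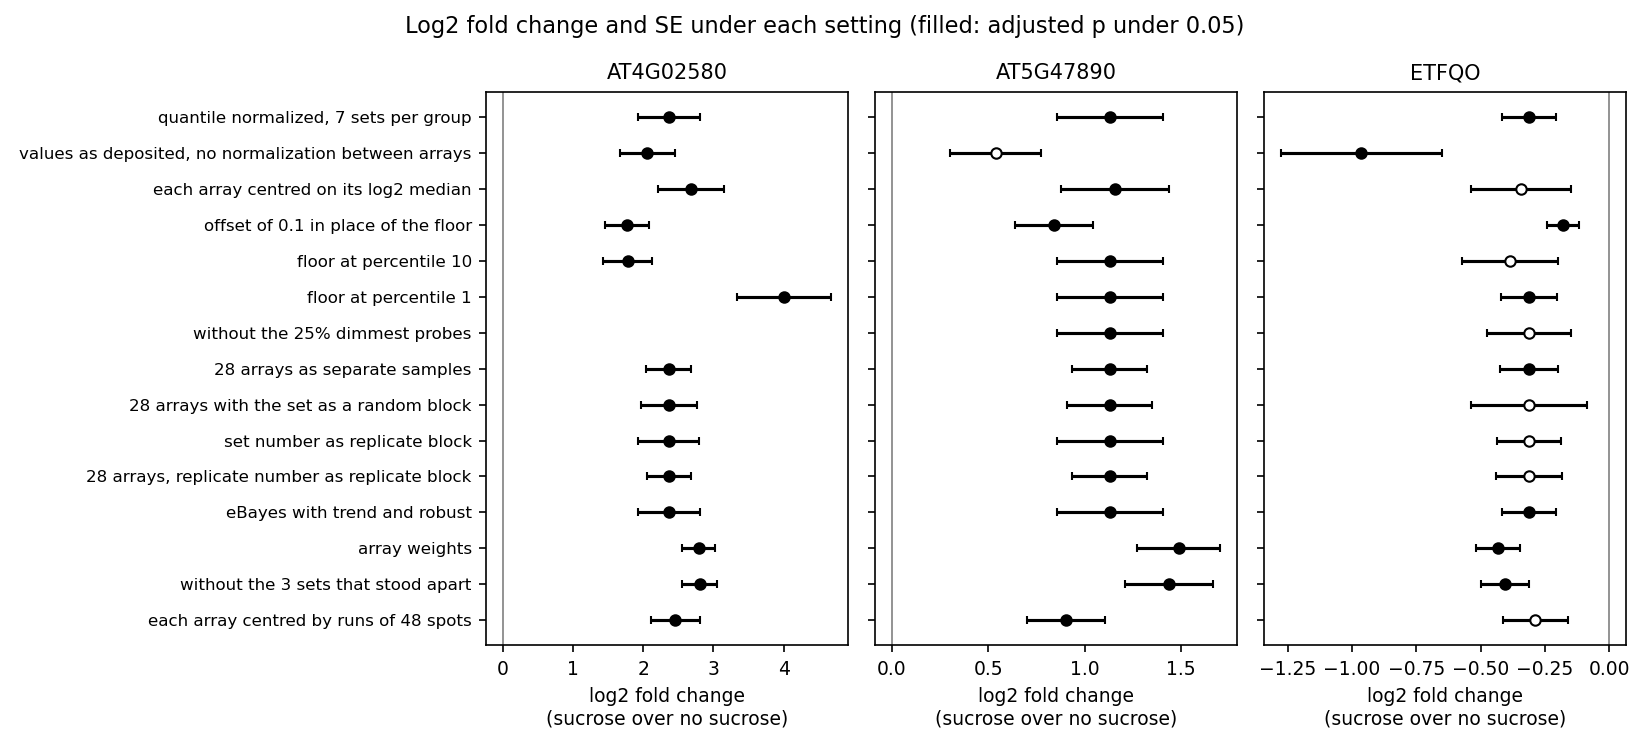
Log2 fold change, sucrose over no sucrose, of each gene under each setting, with whiskers giving the SE; filled points had a limma adjusted p under 0.05 and open points did not. AT4G02580 lies between 1.77 and 4.01, AT5G47890 between 0.54 and 1.49, and ETFQO between -0.96 and -0.18, and horizontal scales differ between panels. AT4G02580 has no point without the dimmest probes because it was among them.

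A ratio of 2 probes on the same array does not depend on how the arrays were scaled to each other by a constant. It compares the responses of the genes free of that scaling, but an added background would not cancel. Only its difference between the media carries information, since levels of different probes cannot be compared. The log2 ratio of AT5G47890 to ETFQO on the deposited scale averaged 1.83 ± 0.85 on sucrose and 0.33 ± 0.48 in its absence (SD, n = 7 sets each). It ranged from 0.27 to 2.72 with sucrose, with a median of 2.12, and from -0.22 to 1.24 without, with a median of 0.28. Sucrose set 1 was low at 0.27, the other 6 sucrose sets lay at 1.39 or above, and the highest set without sucrose was set 1. Relative to ETFQO, AT5G47890 was thus 2.83-fold higher on sucrose, in values where neither probe touched the floor (exact two-sided permutation test over 3432 arrangements of the sets, p = 0.00408).

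The same contrast was tested for the 3 pairs of genes on the normalized scale. Each difference contains the changes of the 2 genes given above, and other pairs of probes were not tested. For AT5G47890 over ETFQO the log2 ratio differed by 1.44 ± 0.35 (SE) between sucrose and no sucrose, with 6 of 7 sucrose sets above all others (exact permutation p = 0.00291). For AT4G02580 over ETFQO it differed by 2.68 ± 0.51 (SE), again with 6 of 7 sucrose sets above all others (exact permutation p = 0.00233). The 2 complex I genes also differed from each other in the size of their rise. The log2 ratio of AT4G02580 to AT5G47890 was higher on sucrose by 1.23 ± 0.30 (SE; exact permutation p = 0.00291). Both differences that include AT4G02580 take their size from the floor. With the floor at the 10th and the 1st percentile, the difference was 2.17 and 4.32 for AT4G02580 over ETFQO, and 0.65 and 2.88 for AT4G02580 over AT5G47890. Adjusted over the 3 pairs by the Benjamini-Hochberg method, each of these exact p was 0.00291.

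**Figure D4:**
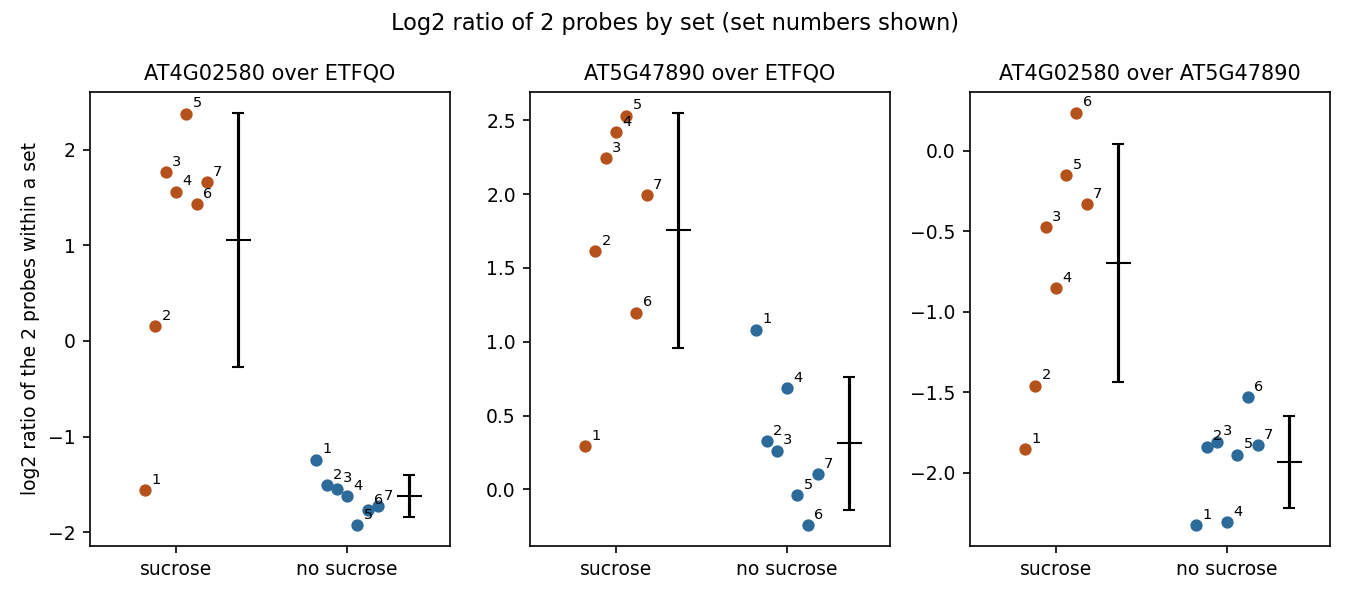
Log2 ratio of 2 probes within each set on the normalized scale, with sucrose on the left and no sucrose on the right of each panel; points are sets with their numbers, and the bar and whiskers give the group mean and SD (n = 7). In each of the 3 pairs the sucrose sets lie above all sets without sucrose except for sucrose set 1.

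Sucrose set 1 lay below the rest of its group in both complex I genes, and within the range of the sets without sucrose in all 3 genes. Its normalized log2 signal was at the floor value of -4.37 for AT4G02580, against -2.64 to -0.90 in the other sucrose sets, while the sets without sucrose ran from -4.37 to -4.10. For AT5G47890 it was -2.52, against -1.88 to -0.58 in the other sucrose sets and -2.84 to -2.05 without sucrose. For ETFQO it was -2.81, inside its own group, which ran from -3.28 to -2.79, and it stood above the other sucrose sets on the deposited scale only. No-sucrose set 1 had the lowest normalized ETFQO signal of its group at -3.13, against -2.83 to -2.44 in the other sets without sucrose. Neither no-sucrose set 1 nor set 2 reached the sucrose level of the complex I genes seen in sucrose sets 2 to 7. Whether the median intensity of these sets had a part in their values was not tested.

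Few other genes of these pathways were measured by a probe of their own. Of 174 genes in 6 lists of mitochondrial respiration, its alternative routes, the tricarboxylic acid cycle and sugar starvation, 4 were measured by a probe of 1 gene, and 3 of these are the genes described above. Of 46 listed nuclear complex I genes 2 were measured. These are AT4G02580 and AT5G47890 themselves, both called higher where 17.6% of all probes were, so the list adds nothing to them. Their median log2 fold change was 1.75, which includes the floor-dependent value of AT4G02580, against 0.00 for all probes. Of 25 genes for ETFQO, the flavoprotein and the breakdown of branched-chain amino acids, lysine and proline, ETFQO alone was measured. The fourth gene was AT5G47030, which encodes the delta subunit of the mitochondrial ATP synthase, and it was listed at 0 on all 28 arrays, so no fold is given. No gene of the alternative oxidase list, the tricarboxylic acid cycle list or the sugar starvation list had a probe of its own.

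A further 7 probes are annotated to several genes of which at least 1 is listed. No gene is named from them, and they were examined after the annotation had been seen. A probe shared by 2 genes that are both on the complex I list was 2.25-fold higher on sucrose (log2 1.17 ± 0.27, SE; limma adjusted p = 0.00883), a change close in size to that of AT5G47890. As with AT5G47890, this did not pass on the deposited scale (log2 0.48, limma adjusted p = 0.0606). A probe shared by a gene of the amino acid breakdown list and an unlisted gene was 2.72-fold lower on sucrose (log2 -1.45 ± 0.31, SE; limma adjusted p = 0.00718). The other 5 did not pass, so 2 of the 7 were called, where 30.0% of all probes were called in either direction. Of the 5, 3 had each of their genes on the tricarboxylic acid cycle list, with log2 fold changes from 0.18 to 0.87 (limma adjusted p from 0.142 to 0.359), and 2 of those 3 turned negative as deposited. The largest of these, at 0.87, passed with arrays centred on their medians (limma adjusted p = 0.0491), without the 3 sets that stood apart (0.036) and over 28 separate arrays (0.0170). A probe shared by 2 genes that are both on the list of complexes II to V had a log2 fold change of 0.04 (limma adjusted p = 0.912), turning to -0.57 as deposited. A probe shared by a gene of that list and an unlisted gene had one of -1.17 (limma adjusted p = 0.0589). It passed as deposited (limma adjusted p = 0.0429), with centred arrays (0.0261), without the 3 sets that stood apart (0.00111) and over 28 separate arrays (0.0110). Of all probes, 27.0% were called in either direction as deposited and 43.9% with centred arrays. The share was 48.2% without the 3 sets and 49.7% over 28 separate arrays, so these passes set neither probe apart. The fit over 28 separate arrays also counts the 2 arrays of a set as independent, although they resemble each other.

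The genes with the most similar pattern over the 14 sets were sought among 591 probes of 1 gene that were above the floor in at least 7 sets. For AT4G02580 they were AT2G38550, AT5G19940 and AT4G26370, with Pearson correlations of 0.970, 0.961 and 0.956. AT4G02580 was tied at the floor in sucrose set 1 and in every set without sucrose except set 2. Its correlations therefore depend on the floor and rest largely on the other sucrose sets. AT5G19940, which encodes a plastid fibrillin, and AT2G38550 were also among the closest to AT5G47890, at 0.938 and 0.937, after AT1G27610 at 0.943. The closest to ETFQO were AT2G37880 at 0.855, AT4G16490 at 0.810 and AT1G35510 at 0.796, so ETFQO had no neighbour as close as the complex I genes had. These values describe the 14 sets, which share the difference between the media and the sets that stood apart.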

How the data were processed

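The table deposited by the authors gives an intensity for each probe on each array, linear and never negative. How scanning, background correction and scaling were done is not given in the sources used here. The background level is unknown. Intensities below 0.0483 (the 5th percentile of positive values) were raised to it, log2 transformed and quantile normalized. Each array listed 409 to 601 probes at 0. Groups were compared with limma 3.58.1 in R 4.3.3 (lmFit, eBayes, two-sided, Benjamini-Hochberg over all 3439 probes, threshold 0.05), tested first on simulated data. Pairs of genes were compared with exact permutation tests over sets in Python 3.11.15. Averaging consecutive arrays into sets followed correlations in the data, within sets 0.903 to 0.989 and between sets at most 0.973, not the labels.

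Gene names came from the platform annotation through the RefSeq table of TAIR10.1. Of the probes 692 had 1 gene, 870 several and 1877 none listed. The genes, lists and tests were chosen with earlier results of these data known. The text names the 3 genes, each listed gene with a probe of its own and the 3 most correlated genes of each. Alternatives covered scaling, floor, a filter on dim probes, the sample unit, blocks, the variance model and samples left out; centring by runs of 48 spots was added after seeing the data.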

Additional observations from a re-analysis of the deposited data

Results flagged for a closer look

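Of 12 groups of values examined by Dixon's test, 1 held a set far from the others. Chance alone flags about 1 in 20 where values are not tied, a rate that does not apply to the flagged group. For AT4G02580 without sucrose, set 2 had a normalized log2 signal of -4.10 while the other 6 sets were tied at the floor of -4.37 (gap over range 1). With the others tied, any single set above the floor gives this gap. One of its 2 arrays read an intensity of 0.0569 and the other was listed at 0.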

How the results depend on the processing

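The direction of each of the 3 genes and 3 pairs was the same under every alternative run. Apart from array weights, alternatives that changed only the sample unit, a block, the variance model or the dim-probe filter kept the estimates by construction. For the pairs, the values as deposited and those centred on array medians gave identical differences, also by construction. AT4G02580 passed in 27 of 27 (log2 fold change 1.77 to 4.01, adjusted p at most 0.0279), and could not be tested without the dimmest 25% of probes because it was among them. AT5G47890 passed in 27 of 28, the exception being the values as deposited (0.54, adjusted p = 0.105). ETFQO lost its call in 18 of 28, at -0.34 with arrays centred on their median, -0.39 with the floor at the 10th percentile, -0.31 without the dimmest 25% of probes (adjusted p = 0.133), with the set as a random block, with the set number as a replicate block (adjusted p = 0.124) or with the replicate number as a block over 28 arrays (adjusted p = 0.0596), and at -0.29 with runs of 48 spots centred (adjusted p = 0.0905). Leaving out 1 set at a time gave -0.38 to -0.27 for ETFQO and ended its call in 11 of 14 cases (adjusted p up to 0.0816), the exceptions being sucrose sets 1 and 2 and no-sucrose set 1. It gave 2.19 to 2.77 for AT4G02580 and 1.02 to 1.34 for AT5G47890, with each call kept. All limma adjusted p over all alternatives ran from 0.000856 to 0.312 for ETFQO. The pairs passed in all 24 alternatives each, including as paired differences in the replicate block (adjusted exact p at most 0.0313).

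The count of probes past the threshold was 1033 (605 higher and 428 lower on sucrose). It was 1710 with 28 arrays as separate samples, 416 with the set number as a replicate block, 1611 with the replicate number as a block over 28 arrays, 1842 with array weights and 1657 without the 3 sets that stood apart. Leaving out 1 set gave 764 to 1431. Of the called probes, 189 were higher and 739 lower as deposited, and 1076 higher and 433 lower centred on the median. Same-numbered sets showed little positive agreement: their deviations correlated at -0.52 to 0.13, with 1 of 7 over 0.1. Among the sucrose sets, 1 of 7 was closest to the no-sucrose set of its own number. The labels do not say whether same-numbered samples were handled together, and these correlations cannot settle it. The unknown background limits what can be said of AT4G02580 without sucrose.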
